A study of Homo sapiens with 2 samples.

Results

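Phototransduction and photoreceptor structure genes encode the proteins with which rods and cones detect light and the scaffold of the outer segment that holds them. The 42 genes described here were taken by name, and 39 of them had a probe under that name on the arrays, which named 18833 gene symbols in all. Peripherin 2 was looked up under its older symbol, RDS. GNAT2, RCVRN and RBP3 had no probe under those symbols, and a recoverin probe found under the older symbol RCV1 is given apart. The 39 genes were read by 50 probes of 60 bases, each printed on 1 spot, and none of these spots was saturated or an outlier.

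The data were 2 one-color arrays. One carried RNA from siRNA-untreated Y79 cells, an established human retinoblastoma line that grows in suspension, and the other carried RNA from Y79 cells harvested 48 h after siRNA against Ep-CAM (gene symbol TACSTD1). According to the methods of the study, both cultures had also been exposed to 5'-azacytidine, an inhibitor of DNA methylation, whereas the sample labels give only the siRNA. With 1 array per condition there is no replicate check, so each difference is one between these arrays, no p-value was computed, and the number of arrays limits the precision. The Ep-CAM probe, with processed intensities of 15.6 untreated and 12.0 treated, was too dim on both arrays to count as above background, so the silencing label could not be checked from its target. Since the cells were measured in bulk, fewer cells with a transcript and less of it per cell cannot be told apart. By its label the control was untreated and not given a scrambled siRNA. Silencing of Ep-CAM and the transfection itself therefore cannot be told apart either.

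In a photoreceptor, light activates an opsin, the opsin activates the G protein transducin, and transducin switches on phosphodiesterase 6, which breaks down cyclic GMP and lets the cyclic nucleotide-gated channels close. Opsin kinases, arrestins and RGS9 end the response, and guanylate cyclases with their calcium-sensing activators restore cyclic GMP. Rods and cones use separate paralogs for many of these steps. Retinoblastoma is a tumor of the developing retina, and its cells are known to express photoreceptor genes.

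A transcript was read through the sequence of its probe, and the pairs shown first are those on which the reading of a gene depends. The red and green cone opsin genes, OPN1LW and OPN1MW, are neighbors on the X chromosome and nearly identical. Their probes, on the plus strand at chrX:152939301-152939360 and chrX:152976398-152976457 (hg17, the build of the array design), overlap by 27 bases when aligned without gaps, with 3 mismatches, which the capitals mark.
OPN1LW: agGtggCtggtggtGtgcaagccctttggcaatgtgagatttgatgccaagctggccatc
OPN1MW: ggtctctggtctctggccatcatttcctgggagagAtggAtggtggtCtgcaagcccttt
How far each probe also bound the other gene's transcript was not tested. The pair of probes for GNGT1, the rod transducin gamma subunit, shared a stretch of 45 bases (capitals) and so gave no independent readings. They lie on the plus strand at chr7:93184762-93184821 and, with a gap in the genome between its ends, chr7:93180800-93184806.
GNGT1, first probe: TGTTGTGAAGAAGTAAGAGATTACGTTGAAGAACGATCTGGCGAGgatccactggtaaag
GNGT1, second probe: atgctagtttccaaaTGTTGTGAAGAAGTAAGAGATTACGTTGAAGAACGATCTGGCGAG
For GNAT1, the rod transducin alpha subunit, and CNGA1, the rod channel alpha subunit, the probes of one gene were read differently, the first being well above background and the second not. The GNAT1 probes lie at chr3:50207203-50207262 and chr3:50205959-50206018 on the plus strand, and the CNGA1 probes at chr4:47779524-47779583 and chr4:47795587-47795646 on the minus strand.
GNAT1, first probe: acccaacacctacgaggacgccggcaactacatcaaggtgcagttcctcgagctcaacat
GNAT1, second probe: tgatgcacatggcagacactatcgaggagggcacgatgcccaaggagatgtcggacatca
CNGA1, first probe: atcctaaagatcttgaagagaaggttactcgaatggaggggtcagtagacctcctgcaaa
CNGA1, second probe: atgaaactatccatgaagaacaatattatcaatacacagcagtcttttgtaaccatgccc

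Of the 39 genes, 29 (74.4%) had a probe well above background in untreated Y79 cells and 27 (69.2%) in siRNA-treated cells. Over all gene symbols on the arrays these shares were 82.1% and 80.1%, so the photoreceptor genes as a list were detected no more often than genes at large. In both conditions 26 genes were detected, and 9 were detected in neither. RP1, RPGRIP1 and SAG were above background in untreated cells only, and CNGA3 in siRNA-treated cells only. Of the 10 genes known from rods (GNAT1, GNB1, GNGT1, PDE6A, PDE6B, PDE6G, CNGA1, CNGB1, SAG, SLC24A1), 8 were detected in untreated and 7 in siRNA-treated cells. Of the 11 genes with a probe known from cones (OPN1SW, OPN1LW, GNB3, GNGT2, PDE6C, PDE6H, CNGA3, CNGB3, ARR3, GRK7, GUCA1C), 5 were detected in untreated cells, or 45.5%, and 6 in siRNA-treated cells, or 54.5%. Both cone opsins were among them, while both cone-specific phosphodiesterase subunits, PDE6C and PDE6H, were not.

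**Figure D1:**
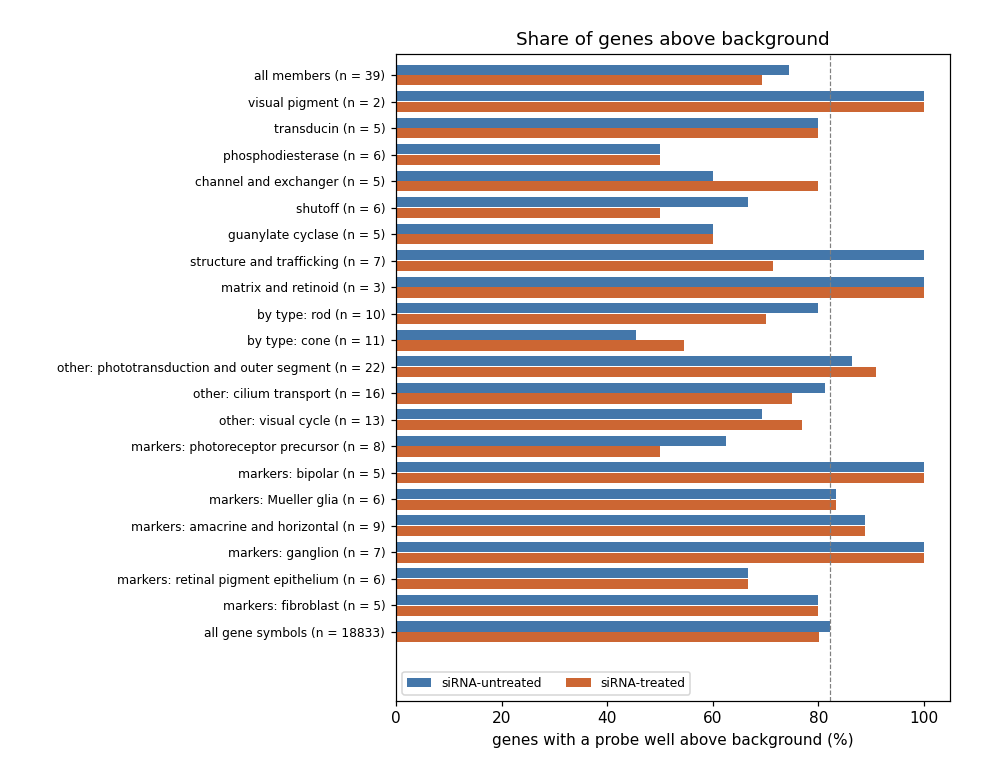
Percent of genes with at least 1 probe well above background in siRNA-untreated (blue) and siRNA-treated (orange) Y79 cells, with 1 array each, for the photoreceptor genes (all members), their roles, the rod and cone lists (by type), other genes of the pathway and markers of other retinal and non-retinal cells; n is the number of genes with a probe. The dashed line is the 82.1% of all gene symbols in untreated cells, and the photoreceptor genes lie below it at 74.4%.

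After siRNA against Ep-CAM no photoreceptor gene was called 2-fold higher or lower, although bounds such as that of CNGA3 and genes below detection leave larger changes possible. Among the 30 genes detected in at least one condition, 0 were higher and 0 lower at a log2 ratio of 1 or -1, against 1.28% of all gene symbols higher and 0.989% lower. The 26 genes measured in both conditions had a median log2 ratio, siRNA-treated over untreated, of -0.14 and a range of -0.73 to 0.41. The median over all measured gene symbols was -0.03. Of the 26 genes, 19 (73.1%) had a negative ratio, against 55.8% of all measured gene symbols. These signs depended on the processing: 14 genes changed sign under some alternative, and with normexp background correction the median of the photoreceptor genes, -0.13, lay above the -0.20 of all measured probes. Most single values were small beside the error that the scanning software estimates for a spot. For 20 of the 30 measured probes the ratio was within 1 such error of 0, and for 27 it was within 2. Probes printed on several spots, 195 of them on these arrays, had a median SD of 0.14 in log2 ratio between their spots.

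The levels that follow are the processed intensity of a probe divided by the median of all transcript spots on its array (48.8 and 50.0). Pairs of levels give the untreated cells first. The brightness of a probe also depends on its sequence, so a level is set only against the same probe on the other array. Across the 50 probes brightness in untreated cells rose with the GC content of the probe, with a Spearman correlation of 0.44, and across all 40976 probes the correlation was 0.54; these probes share 1 array.

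Both visual pigments of the list were detected in each condition. OPN1SW, the blue cone opsin, had a level of 11.2 before and 8.91 after siRNA treatment, a log2 ratio of -0.33 ± 0.20 (error of the scanning software). OPN1LW, the red cone opsin, had levels of 7.47 and 7.60, a log2 ratio of 0.03 ± 0.21. The OPN1MW probe, which overlaps that of OPN1LW, likewise read 10.2 and 10.6, a log2 ratio of 0.06 ± 0.20. These cone opsin probes thus differed by less than 2 errors between the arrays. The OPN1SW probe, at chr7:128008554-128008613 on the minus strand, is shown because it is the only reading of that gene.
OPN1SW: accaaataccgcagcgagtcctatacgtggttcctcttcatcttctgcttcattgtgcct

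Of the 5 transducin subunits with a probe, the rod gamma subunit alone was not detected. GNAT1 had levels of 1.32 and 1.49 at its first probe, a log2 ratio of 0.17 ± 0.23, while the second probe was not well above background, at 0.12 and 0.23. GNB1, a beta subunit that rods share with most cells, read 72.7 and 66.3 at one probe and 17.5 and 16.4 at the other, with log2 ratios of -0.13 and -0.09. Its cone counterpart GNB3 had levels of 4.14 and 3.69, a log2 ratio of -0.17 ± 0.21. The probes of the gamma subunits differed in detection: GNGT1 of rods was not above background at either probe, whereas GNGT2 of cones was detected at 0.64 and 0.49, a log2 ratio of -0.40 ± 0.35.

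Of the phosphodiesterase subunits, PDE6B, PDE6D and PDE6G were detected in both conditions, and PDE6A, PDE6C and PDE6H in neither. PDE6B, the rod beta subunit, had levels of 3.88 and 3.81 at its brightest probe, a log2 ratio of -0.03 ± 0.21, and a second probe with a log2 ratio of 0.09 ± 0.29 lies on the strand opposite to the gene. The third PDE6B probe was not above background. PDE6A, the rod alpha subunit that pairs with PDE6B in the enzyme, read 0.24 and 0.10, below detection on both arrays. The inhibitory rod subunit PDE6G had levels of 0.81 and 0.73, a log2 ratio of -0.14 ± 0.29. PDE6D, a chaperone of lipid-modified proteins that is made in many tissues, read 4.34 and 3.48, a log2 ratio of -0.32 ± 0.21.

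Among the channel genes the largest bound of the list was found, that of CNGA3, the cone channel alpha subunit. Its processed intensity was 8.53 ± 5.33 in untreated cells, not well above background, and 30.5 ± 5.99 in siRNA-treated cells. Set against 14.9, the lowest signal above background in untreated cells, it was 1.99-fold higher after scaling (log2 bound 0.99). This bound lies just short of the 2-fold threshold. It is nominal and no strict lower limit, since brighter untreated spots, such as RBP4 at 27.7, were not well above background either. Over 11 alternatives the log2 value of CNGA3 ranged from 0.27 to 1.80, so it crosses the threshold in some and falls well short of it in others. The CNGA3 probe sits in one corner of the printed surface, where log2 ratios of all probes had an SD of 0.51 against 0.29 elsewhere. CNGA1 lies in the same corner and was measured at 1.47 and 1.01, a log2 ratio of -0.54 ± 0.24, and its other probe was not above background, at 0.28 and 0.31. The measured probes of GNAT1, PDE6G, GUCY2D and RDS also lie in this corner, and the dim second probe of GNAT1 does not. The part of the corner in these ratios was not tested.

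CNGB1, the rod channel beta subunit, was detected at both of its probes, which moved in opposite directions. The first read 2.67 and 2.44, a log2 ratio of -0.13 ± 0.21, and the second 2.14 and 2.64, a log2 ratio of 0.30 ± 0.21. These ratios differed in sign while neither was more than 2 errors from 0. The first probe lies at chr16:56548746-56549835 with a gap in the genome between its ends, and the second at chr16:56479347-56479406, both on the minus strand.
CNGB1, first probe: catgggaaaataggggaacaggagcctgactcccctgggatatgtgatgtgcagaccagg
CNGB1, second probe: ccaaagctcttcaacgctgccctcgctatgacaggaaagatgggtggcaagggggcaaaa
CNGB3, the cone beta subunit, was not above background on either array. SLC24A1, the rod sodium-calcium and potassium exchanger, had levels of 1.76 and 1.50 at its brightest probe, a log2 ratio of -0.23 ± 0.23. A second SLC24A1 probe was above background in siRNA-treated cells only, with processed intensities of 17.3 ± 3.87 untreated and 20.3 ± 4.46 treated. Its 1.15-fold higher value is the plain ratio of these readings and no lower limit. The third SLC24A1 probe was dim in both conditions.

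Of the genes that end the light response, cone arrestin ARR3 was detected in both conditions and rod arrestin SAG in untreated cells only. ARR3 had levels of 1.68 and 1.45, a log2 ratio of -0.21 ± 0.23. SAG had processed intensities of 22.1 ± 4.57 and, not well above background, 5.59 ± 4.17, at a probe in the same array corner. Set against 17.5, the lowest signal above background in siRNA-treated cells, it was 1.29-fold lower after scaling. This bound is likewise nominal, since PDE6H at 23.3 was not well above background in siRNA-treated cells. Over the alternatives the log2 value of SAG ranged from -2.02 to -0.05. GRK1, the opsin kinase of rods, had levels of 2.77 and 3.07, a log2 ratio of 0.15 ± 0.21, whereas the cone opsin kinase GRK7 was not above background. RGS9, which speeds the shutoff of transducin, was not detected either. Phosducin PDC, which binds transducin beta and gamma subunits, had levels of 1.42 and 1.24, a log2 ratio of -0.20 ± 0.24. The recoverin probe under the symbol RCV1 was not above background, at 0.22 and 0.26.

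Guanylate cyclase and its activators were divided in the same way between detected and undetected paralogs. GUCY2D, the main retinal cyclase, had levels of 0.94 and 0.90, a log2 ratio of -0.06 ± 0.30, and GUCY2F was dim on both arrays. GUCA1A, which activates the cyclase when calcium falls, read 0.86 and 1.06, a log2 ratio of 0.30 ± 0.26. GUCA1B, a second activator, had a log2 ratio of -0.52 ± 0.24 at one probe, with levels of 1.48 and 1.03, and of -0.01 ± 0.24 at the other, with levels of 1.40 and 1.39. GUCA1C was not above background.

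UNC119 carried the largest measured ratio of the list. It encodes a carrier of lipid-modified transducin that is also made outside the retina. Its levels were 10.7 and 6.43, a log2 ratio of -0.73 ± 0.21 or 1.66-fold lower, outside the corner of the array. This was the only measured probe of the 30 outside the 5th to 95th percentile of all measured probes (-0.57 to 0.44). Its 1 probe lies at chr17:23898932-23898991 on the minus strand.
UNC119: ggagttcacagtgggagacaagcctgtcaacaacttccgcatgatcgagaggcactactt

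**Figure D2:**
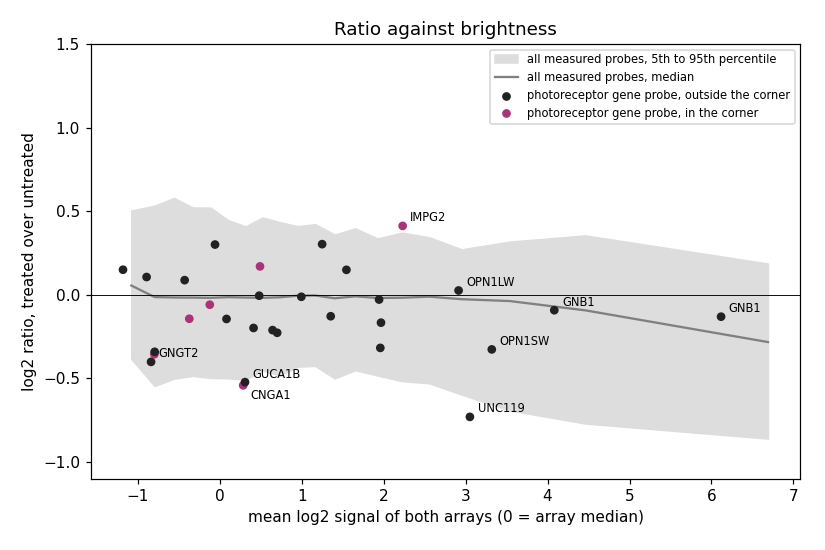
Log2 ratio of siRNA-treated over untreated cells against the mean log2 signal of both arrays for the 30 measured photoreceptor gene probes (points, purple in the corner of the array) over the 5th to 95th percentile of all measured probes in 20 bins of brightness (grey band). In its own bin UNC119, at -0.73, lies below a 5th percentile of -0.60, and 3 other probes, of CNGA1, GUCA1B and IMPG2, lie just outside the band.

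Of the other structural genes, those measured in both conditions had ratios within 1 error of 0. The disk rim proteins peripherin 2 (RDS) and ROM1 were detected in both conditions, at 0.65 and 0.51 and at 0.52 and 0.56, with log2 ratios of -0.36 ± 0.38 and 0.11 ± 0.35. TULP1, which acts in transport to the outer segment, had levels of 1.11 and 1.01, a log2 ratio of -0.15 ± 0.25. AIPL1, a chaperone needed to assemble phosphodiesterase 6, was detected at 1 of its 2 probes, at 0.42 and 0.46, a log2 ratio of 0.15 ± 0.36. RPGRIP1 of the connecting cilium was above background in untreated cells only, with processed intensities of 24.7 ± 3.88 untreated and 18.2 ± 4.19 treated. Its log2 value of -0.48, 1.39-fold lower, is the plain ratio of these readings and no lower limit. Over the alternatives it ranged from -0.48 to -0.16. RP1, a microtubule protein of the axoneme, read 0.42 and 0.44 and gave no bound, since its intensity was as high in the condition where it was not called above background.

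The 3 genes of the photoreceptor matrix and of retinoid handling with a probe were detected in both conditions. IMPG2, a proteoglycan of the interphotoreceptor matrix, had levels of 4.07 and 5.41, a log2 ratio of 0.41 ± 0.21, the highest among the measured genes, at a probe in the array corner. IMPG1 of the same matrix differed in direction, with levels of 0.65 and 0.51 and a log2 ratio of -0.34 ± 0.35. RDH12, a retinol dehydrogenase of photoreceptors, had levels of 2.00 and 1.98, a log2 ratio of -0.01 ± 0.22. The 15 probes dim on both arrays had processed intensities of 3.28 to 23.3, and these probes cannot show a change. For 9 genes no other probe was detected.

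**Figure D3:**
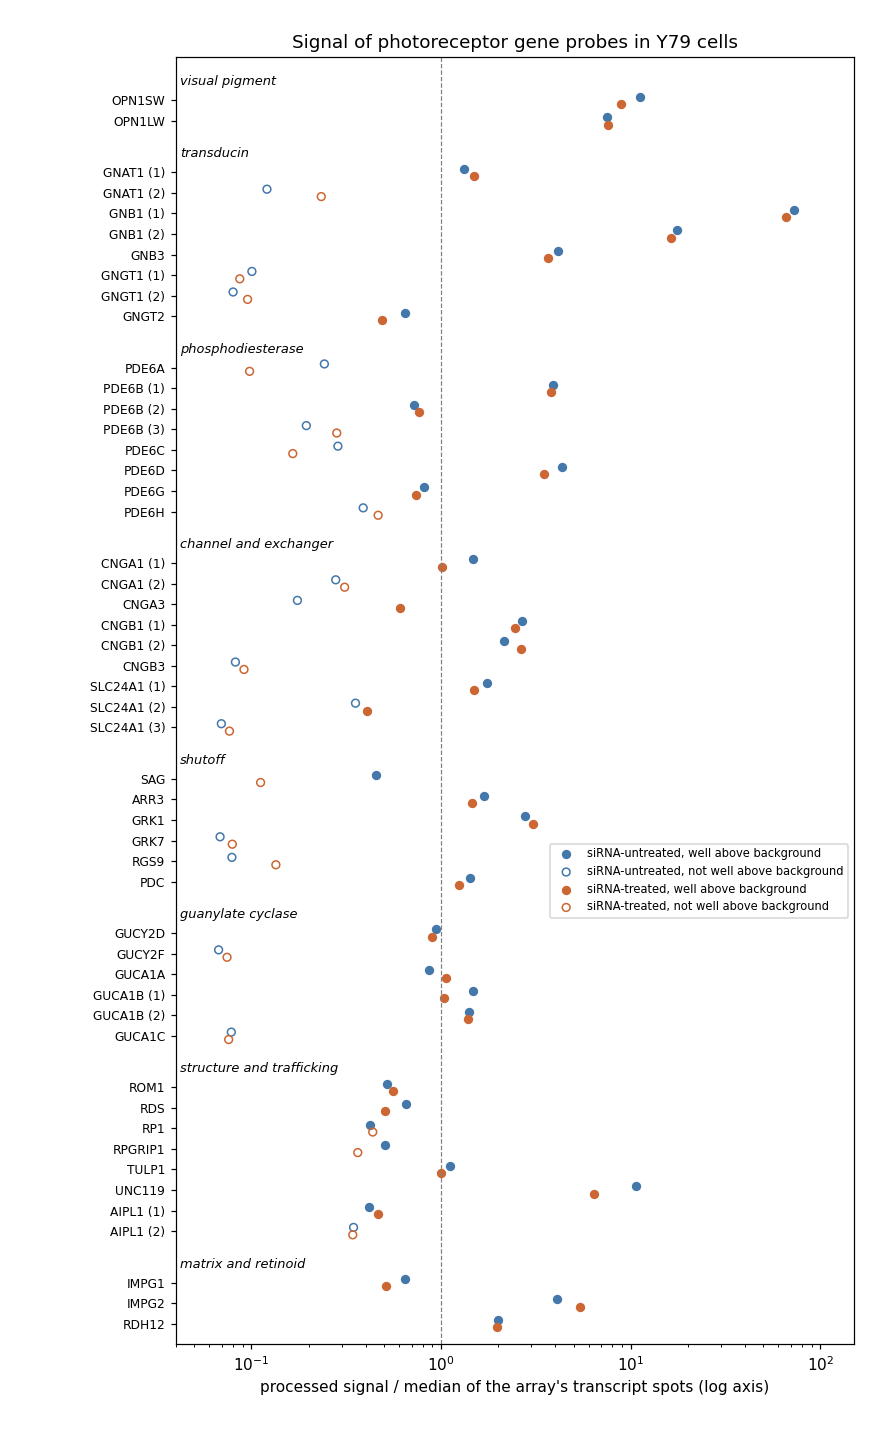
Processed signal of each photoreceptor gene probe divided by the median of its array (log axis) in siRNA-untreated (blue) and siRNA-treated (orange) Y79 cells, with 1 array each, grouped by role; filled points are well above background, open points are not, and numbers tell the probes of a gene apart. Blue and orange lie close together at most probes, with SAG, CNGA3 and several open points apart.

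The detected and undetected genes were also compared in their promoters, from 250 bases before to 50 bases after the RefSeq gene start (GRCh38.p14). Of the 42 genes, 32 had such a window. A pair of known cores of sites for CRX and OTX2, homeobox factors of photoreceptors, was searched on both strands. The first, TAATCC, was found in 8 of the 32 genes (25%), in 7.81% of all 27305 gene symbols with a window and in 6.36% of all 35097 windows. The second, CTAATC, which can overlap the first by all but one letter, was found in 16 genes (50%), in 6.72% of all gene symbols and in 5.47% of all windows. At least 1 of them was in 18 of the 32 genes and in 11.9% of the gene symbols. Among genes detected in untreated cells, 13 of 22 held a match, and among genes not detected there 5 of 9, with GNAT2 left out for want of a probe. A match is a description of letters only. The windows of OPN1SW, at chr7:128775745-128776044 on the minus strand, and of GNAT1, at chr3:50191360-50191659 on the plus strand, are shown as one cone and one rod example, with the matches in capitals.
OPN1SW promoter: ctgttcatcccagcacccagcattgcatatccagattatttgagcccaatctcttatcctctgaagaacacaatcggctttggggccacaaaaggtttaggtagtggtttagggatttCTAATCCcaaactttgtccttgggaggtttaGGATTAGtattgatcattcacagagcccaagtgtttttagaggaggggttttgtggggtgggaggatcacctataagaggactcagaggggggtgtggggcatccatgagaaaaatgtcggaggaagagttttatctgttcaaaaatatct
GNAT1 promoter: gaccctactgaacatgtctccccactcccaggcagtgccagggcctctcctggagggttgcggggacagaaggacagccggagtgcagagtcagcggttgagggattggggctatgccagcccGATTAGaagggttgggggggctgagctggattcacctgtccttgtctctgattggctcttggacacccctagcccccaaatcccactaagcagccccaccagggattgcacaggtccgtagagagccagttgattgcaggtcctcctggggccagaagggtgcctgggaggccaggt

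Other genes of phototransduction and the outer segment, 22 with a probe, were detected in untreated cells in 19 cases and in siRNA-treated cells in 20, and 0 were higher or lower by 2-fold. Among the bright probes of this list were those of CNNM4 (log2 ratio -0.41), OPN1MW, OPN4 (-0.12) and RP2 (-0.10).

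Of 16 genes of ciliary transport with a probe, through which proteins reach the outer segment, 13 were detected in untreated and 12 in siRNA-treated cells, with 0 past 2-fold. Among the brightest were IFT20 (log2 ratio -0.23), KIF3B (-0.03), KIF17 (0.04) and BBS4 (-0.34). Of 13 genes of the visual cycle, which regenerates the chromophore, 10 had a ratio or bound. Of these, 1 was lower and 1 higher by 2-fold, against 0.989% and 1.28% of all gene symbols. RDH10, a retinol dehydrogenase, had processed intensities of 552.5 and 205.8, a log2 ratio of -1.46 at 1 probe, while its other probe was dim on both arrays. RBP4, the plasma retinol carrier, read 27.7, not well above background, and 62.2, at a probe in the array corner. Its 2.20-fold higher value is the plain ratio of these readings and no lower limit. The remaining bright members of this list, RGR (-0.02), LRAT (-0.23), RDH5 (0.83) and STRA6 (-0.61), did not reach 2-fold.

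The retinal identity of the cells was examined with markers. Of 8 genes of photoreceptor precursors with a probe, 5 were detected in untreated cells and 4 in siRNA-treated cells. The photoreceptor regulators CRX and OTX2 had log2 ratios of -0.37 and -0.47, and NR2E3 and RORB of 0.43 and 0.38. NRL, the rod determinant, RXRG of cones and NEUROD1 were not above background on either array, and THRB was detected in untreated cells only. Markers of other cells passed the same flag at least as often as these precursor genes. In both conditions 5 of 5 bipolar, 5 of 6 Mueller glia, 8 of 9 amacrine and horizontal, 7 of 7 ganglion, 4 of 6 pigment epithelium and 4 of 5 fibroblast genes were detected. Over all gene symbols 82.1% were detected in untreated and 80.1% in siRNA-treated cells, so these counts do not mark out a cell type. Passing the flag was thus not particular to photoreceptor transcripts on these arrays. Of all these markers 1, the ganglion cell factor POU4F3, passed 2-fold, with a log2 ratio of 1.20 and intensities of 26.9 and 63.1. Over all gene symbols 1.28% were higher by 2-fold. The brightest markers of each class, CABP5, PRKCA and GRM6 of bipolar cells, KCNJ10 and GFAP of glia, LHX1 and GAD1 of amacrine and horizontal cells, THY1 and POU4F2 of ganglion cells, TYR and SILV of pigment epithelium and DCN of fibroblasts, had log2 ratios of -0.55 (DCN) to 0.23 (PRKCA).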

How the data were processed

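RNA of 1 siRNA-untreated and 1 siRNA-treated Y79 culture was labeled with cyanine 3 and hybridized to whole-genome 60-base oligonucleotide arrays. The deposited files hold spot intensity values that the authors made with Agilent Feature Extraction (version 9.5.3.1 per the file headers; the labels name another version). These processed values are background-subtracted and not scaled between arrays, and very dim spots carry a substitute value. Both arrays lay on 1 slide in 1 scan. The deposited series value table held the raw median intensity of each spot and was used as an alternative.

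Without control and outlier spots, intensities were divided by the array median, floored at 0.01, put on the log2 scale and averaged by probe. Detection needed the flag for signal well above background in at least 50% of a probe's spots. For a probe detected on 1 array only, the ratio is given as a bound against the lowest signal above background on the other array (14.9 untreated, 17.5 siRNA-treated) or the probe's own signal, whichever was higher. Where the probe's own signal was higher, the value is the plain ratio of its readings and no lower limit. Otherwise the bound is nominal, since some spots brighter than these lowest signals were not well above background either. A gene took its value from its brightest probe measured on both arrays, otherwise from its brightest probe, and was called at a log2 ratio of 1 or -1. The error of a ratio was propagated from the software's error of each spot. Coordinates of probes come from the array design (hg17), and no annotation of that build was used, so exons and introns are not named. Accessions of 46 of the 50 probes matched RefSeq (GRCh38.p14), which also gave the promoters; the strand was known for 40 probes, and 1 lay opposite to its gene.

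Every listed gene is accounted for, and of the other lists the brightest genes and those past 2-fold are named, except for some that are not reported here. The genes, lists and promoter letters were chosen with earlier results of these data known. The call rule was tested on simulated arrays in which only bright probes changed, by more than 2-fold, and in which no bounds could arise. That test does not bear on bounds, changes of dim probes or changes near 2-fold. Alternatives were other scalings, background corrections, filters and thresholds and the arrays without a corner. Python 3.11.15, pandas 2.3.3 and, for normexp, limma 3.58.1 were used.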

Additional observations from a re-analysis of the deposited data

How the results depend on the processing

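No paired analysis was possible because each condition had 1 array, and for the same reason no replicate could be left out. The count of photoreceptor genes higher by 2-fold was 0 and became 1 under scaling to the 75th percentile, no scaling, quantile normalization, scaling to probes above background on both arrays, the looser background flag (positive and significant), no filter on dim probes, and thresholds of 1.5 and 0.55. In the settings that kept the 2-fold threshold this gene was CNGA3, whose log2 value ranged from 0.27 to 1.80 over 11 alternatives and which is left out with the array corner. The count lower by 2-fold was 0 and became 2 under the looser flag and 2 with no filter, when SAG (-2.02) and PDE6A (-1.31) were read from intensities not well above background. The median log2 ratio kept its sign in each alternative, from -0.14 to -0.06. Under normexp with an offset of 50, the median of all measured probes moved to -0.20 and that of the photoreceptor genes stayed at -0.13, so they no longer lay below it. The normexp fit without spots dimmer than their local background, added after the data were seen, gave -0.08 against -0.02. With the looser flag 34 genes were detected in each condition. Without the corner 22 and 20 were detected, in a shorter list, since genes with probes only in the corner drop out. Shares over all gene symbols are not given for these settings, so the counts do not set the list against other genes. UNC119 ranged from -0.999 to -0.54. Of 29 genes with a ratio or bound, 15 kept their sign in each alternative that gave them a value and 14 did not, with reported log2 ratios between -0.40 (GNGT2) and 0.17 (GNAT1). The cause of these shifts was not tested. Signal over background limits the 9 genes dim on both arrays, for which no change could be read.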
